A study of Danio rerio with 8 samples.

Results

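Whole zebrafish (Danio rerio) embryos kept in high glucose were compared with embryos kept in control medium. Both groups were cultured for 72 h, and each gave 3 bulk RNA libraries, so that 6 of the 8 libraries of the series enter the comparison. They were chosen by their labelled treatment and paired by a suffix in the column names (1m, 2f or 2m), whose meaning was not stated. The other 2 libraries, from embryos in high salt (1m and 2m), entered the statistical fit only to help estimate the spread and the suffix effect. The labels gave no strain, genotype, embryo age at the start, number of embryos per library, glucose concentration or osmotic control. Whether the libraries of one treatment come from different clutches or dishes was not stated, and p-values therefore measure the spread between these libraries, which may be technical. The comparison asks which transcripts differ in embryos raised in high glucose.

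Glucose that enters a cell is phosphorylated by hexokinases and then feeds glycolysis, glycogen storage, the pentose phosphate route, the polyol route and the hexosamine route. In the vertebrate liver, insulin lowers transcription of the gluconeogenic enzymes, whereas glucose itself acts on transcription through the factor ChREBP, encoded by mlxipl. The early zebrafish embryo lives on yolk, from which the yolk syncytial layer and later the liver export lipoproteins.

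The deposited table gave whole-number read counts for 31953 genes, and 20562 of them passed a filter on low counts and were tested. Library totals lay between 15.33 M and 17.32 M counts in the 6 libraries. Levels are given as CPM, counts relative to TMM-scaled library totals, and 3 counts, the floor used here, are worth 0.171 to 0.226 CPM over the series. Intervals from such counts would cover counting error only. Control 1m stood apart by correlation of log2 CPM, with r between 0.90 and 0.94 to the 5 other control and glucose libraries, which correlated with each other at 0.96 to 0.98. Defining markers of lens, skeletal muscle, red blood cells, liver, neurons, epidermis, hatching gland, heart and other tissues were present (59 of 71 markers found in the table had a mean of at least 1 CPM). Photoreceptor markers were near the floor, with 6 genes summing to between 1.17 and 3.08 CPM per library.

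Few genes separated the groups, and most of those that did were lower in high glucose. With the suffix as a block, edgeR's quasi-likelihood F-test with Benjamini-Hochberg adjustment over all tested genes called 32 genes lower (0.156% of those tested) and 4 genes higher (0.0195%) at an adjusted p below 0.05. The 32 falls included carriers of small lipids, a digestive and a liver enzyme, a clotting factor, light-sensing opsins, an antigen presentation gene and a pair of genes of the p53 response. All 4 rises were lens genes. The 36 genes lay on 17 chromosomes and had the same sign in all 3 suffix pairs, as had 19.1% (lower) and 21.3% (higher) of all tested genes. Of the 32 lower genes, 31 had all 3 glucose libraries below all 3 controls, against 7.67% of tested genes. The genes were called on these same libraries, so shared signs and the separation of the falls follow largely from the call. Each of the 4 higher genes overlapped between groups, and 7.13% of tested genes had all 3 glucose libraries above the controls. For the list counts given below, 50.4% of all tested genes stood above 0. Fitted without the salt libraries, the blocked test called 42 genes lower (0.214% of 19654 tested) and 8 higher (0.0407%). Without the block it called 0 genes over all 8 libraries, with 1227 at an unadjusted p below 0.05 (5.97%), and the adjusted p of the 32 lower genes then lay between 0.087 and 0.761.

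**Figure D1:**
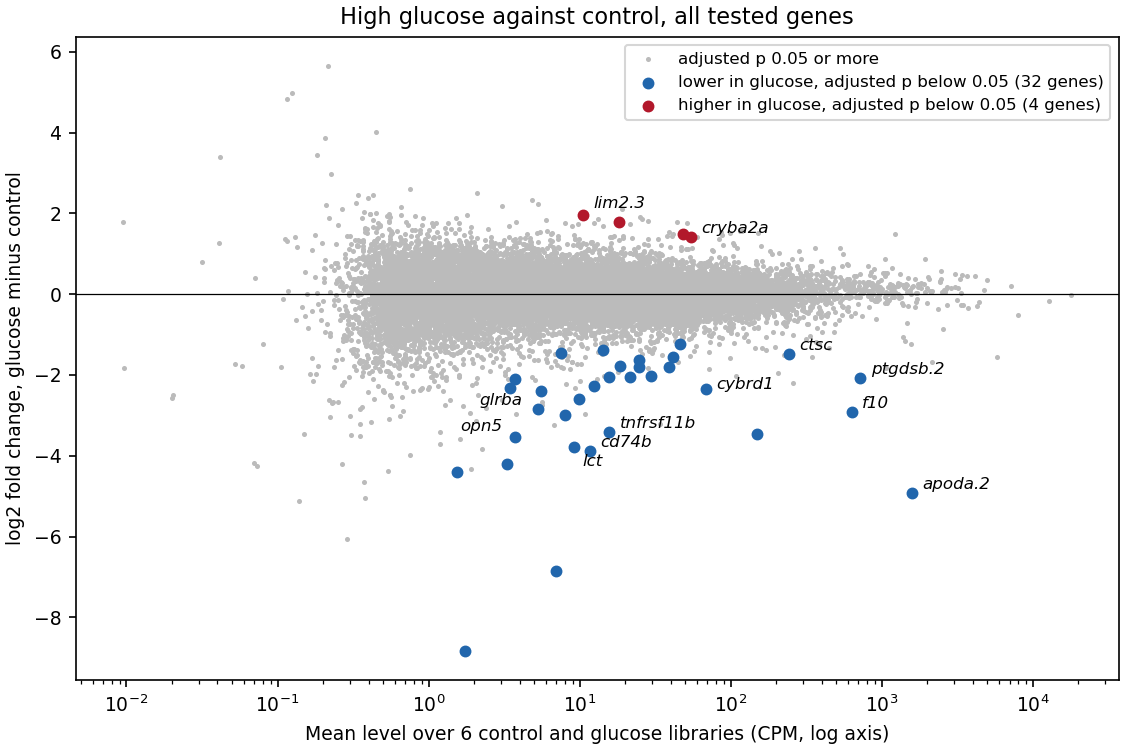
Mean level over the 6 control and glucose libraries (CPM, log axis) against the log2 fold change, glucose minus control, for each tested gene. The 32 genes past the test in blue lie below 0, from the abundant apoda.2 to genes of a few CPM, and the 4 in red are lens genes between 1.41 and 1.97.

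The largest fall among genes with an ordinary symbol was in apoda.2 (chr2:37225004-37233532), a copy of apolipoprotein D, a lipocalin that binds small hydrophobic molecules. Its level was 5565, 1613 and 2083 CPM in control 1m, 2f and 2m and 54.2, 129 and 74.9 CPM in the glucose libraries of the same suffixes. Every control thus stood more than 10-fold above every glucose library. The log2 fold change was -4.92 ± 0.56 (estimate ± SE, n = 3 and 3, edgeR adjusted p = 0.00829, and 0.0990 without the block), and within the 1m, 2f and 2m pairs it was -6.68, -3.64 and -4.79. Its neighbour apoda.1 (chr2:37225342-37227940), whose coordinates lie within those of apoda.2, stood at 1.37, 5.67 and 9.60 CPM in control and 2.51, 9.09 and 10.6 CPM in glucose (0.52 ± 0.27, adjusted p = 0.461). Another copy, apodb on another chromosome, had 408, 142 and 157 CPM against 74.7, 100.4 and 81.8 CPM and did not pass the test (-1.33 ± 0.34, adjusted p = 0.195).

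A second lipocalin locus was lower as well. The gene ptgdsb.2 (chr24:16877092-16884954) belongs to the family of lipocalin-type prostaglandin D2 synthase and transports small lipids. Its level was 1494, 1097 and 895 CPM in control and 232, 361 and 234 CPM in glucose, with no overlap, and its log2 fold change was -2.08 ± 0.24 (adjusted p = 0.00829, and 0.0870 without the block). The overlapping copy ptgdsb (chr24:16882891-16884955) was several times more abundant, at 12115, 7454 and 6582 CPM in control and 2277, 3614 and 2824 CPM in glucose. Its groups did not overlap either, but its fold change of -1.55 ± 0.29 missed the threshold (adjusted p = 0.0877). Another family member, ptgdsa, stood at -0.64 (adjusted p = 0.410), with overlapping groups. How reads shared by such copies were counted was not given in the sources used here, so the split between copies at both loci is uncertain. Over the list of lipocalins and apolipoproteins, 2 of 33 tested members fell and 0 rose, where 0.156% of all tested genes were called lower and 0.0195% higher. The list median was 0.05, against 0.00 over all tested genes.

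Enzymes formed another group among the falls. The gene named lct, after the brush-border disaccharidase lactase, lies at chr9:46588054-46595324 and had 11.7, 17.3 and 22.1 CPM in control and 0.970, 1.69 and 1.07 CPM in glucose. Its log2 fold change was -3.78 ± 0.39 (adjusted p = 0.00829, and 0.0870 without the block), and all 3 pairs showed a similar size (-3.43, -3.26 and -4.22). A neighbouring gene at chr9:46569453-46582158, given the symbol LCT in the reference table of gene names, had a value of -2.75 ± 0.63 (adjusted p = 0.168), whereas lctla, of the same family, stood at 2.33 (adjusted p = 0.207). In the intestine list lct alone of 27 tested members passed, where 0.156% of all tested genes were called lower. Of that list 13 stood above 0 (48.1%, against 50.4% of all tested genes), and the median was -0.04. Phenylalanine hydroxylase, encoded by pah (chr4:17402704-17420557), converts phenylalanine to tyrosine, mainly in liver. Control libraries had 33.0, 44.5 and 34.9 CPM of pah and glucose libraries 9.82, 14.5 and 12.2 CPM, the groups were apart, and the log2 fold change was -1.62 ± 0.21 (adjusted p = 0.0130, and 0.122 without the block). The other liver genes did not follow it as a group. In the liver list 1 of 23 tested members fell, against 0.156% of all tested genes. There 16 stood above 0 (69.6%, against 50.4% of all tested genes), and the median was 0.14.

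The ferric reductase gene cybrd1, which serves iron uptake in the mammalian intestine, went from 216, 75.4 and 60.8 CPM to 18.2, 26.1 and 15.5 CPM (-2.34 ± 0.33, adjusted p = 0.0257). Cathepsin C, a lysosomal protease that activates granule proteases of leukocytes, is encoded by ctsc, which was at 394, 357 and 292 CPM in control and 221, 112 and 75.3 CPM in glucose (-1.49 ± 0.23, adjusted p = 0.0357). For cybrd1 the highest control was 1m, and for ctsc the 1m pair showed the smallest difference, -0.83, -1.67 and -1.95 for 1m, 2f and 2m. Without the block their adjusted p was 0.371 and 0.761.

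Blood proteins gave 1 fall in each of 2 cascades. Of the tested members 60.9% stood above 0 in the coagulation list and 75% in the complement and acute phase list. Over all tested genes the share was 50.4%, and 0.156% were called lower. Coagulation factor X, the protease that converts prothrombin to thrombin, is encoded by f10 (chr1:135903-142469). Its level was 2522, 572 and 371 CPM in control 1m, 2f and 2m against 144, 113 and 73.6 CPM in glucose. The control 1m value was more than 4 times that of either other control, and yet the lowest control remained above the highest glucose library. The fall, as log2 fold change, was -2.92 ± 0.34 (adjusted p = 0.00848, and 0.527 without the block). The gene beside it at chr1:144284-151998, with the reference symbol PROZ for protein Z, a cofactor in the inhibition of factor X, had a value of -1.83 ± 0.35 (adjusted p = 0.0877). On the other side, a gene with the symbol F7 for factor VII stood at -0.74 (adjusted p = 0.395). Nearer to f10, the genes f7 and f7i stood at 0.34 and 1.11 (adjusted p = 0.776 and 0.466). The annotated span of f7i (chr1:127250-189026, mean 0.828 CPM) covers f10 and the protein Z gene. The split of reads at this locus is therefore uncertain. These neighbours were picked after their values had been seen. Over the coagulation list 1 of 23 tested members fell and 14 stood above 0, among them the fibrinogen chain gene fga (1.14 ± 0.24, adjusted p = 0.119). The list median was 0.34, and vwf, for von Willebrand factor, stood at -1.61 ± 0.43 (adjusted p = 0.207).

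Complement component 7 anchors the forming membrane attack complex to membranes. One of its genes, c7b (chr21:20864869-20878655), had 61.6, 69.3 and 48.3 CPM in control and 27.9, 17.9 and 9.46 CPM in glucose, with the 3 glucose libraries lower, and the log2 fold change was -1.80 ± 0.23 (adjusted p = 0.0133, and 0.527 without the block). Its 1m pair differed least (-1.14, -1.95 and -2.34 over 1m, 2f and 2m). Of the 24 tested members of the complement and acute phase list c7b was the single gene past the test, and 18 stood above 0, including c8b (1.01 ± 0.24, adjusted p = 0.185), a later component of the same complex, and c3a.1 (0.63 ± 0.19, adjusted p = 0.247), for the central component C3. The list median was 0.44, and the pair medians were 0.59, 0.44 and -0.04 for 1m, 2f and 2m.

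Among immune genes, cd74b (chr21:33424025-33429516) encodes the invariant chain, the chaperone of class II antigen-presenting molecules. It stood at 44.7, 10.4 and 11.05 CPM in control and 2.11, 0.752 and 1.13 CPM in glucose, with a log2 fold change of -3.89 ± 0.35 (adjusted p = 0.00387, and 0.166 without the block). All pairs agreed in size (-4.32, -3.58 and -3.16), although control 1m was about 4 times the other controls. In the antigen presentation list cd74b alone of 19 tested members passed, where 0.156% of all tested genes were called lower. The class I light chain b2m went from 46.5, 7.99 and 11.6 to 5.14, 4.26 and 3.07 CPM (-2.11 ± 0.49, adjusted p = 0.173), and the class I gene mhc1zba from 157, 72.2 and 77.8 to 40.2, 48.2 and 41.0 CPM (-1.17 ± 0.26, adjusted p = 0.144). Both had groups that did not overlap and neither passed the test. The list median was -0.33, with 12 of 19 members below 0 and medians of -0.50, 0.03 and -0.30 in the 1m, 2f and 2m pairs. The macrophage and neutrophil list had a median of 0.37, with 30 of 36 tested members above 0 and none past the test. Its pair medians were 0.62, 0.06 and 0.26, so that both lists were near 0 in the 2f pair. Its lowest p values were those of lyz, for lysozyme (0.71 ± 0.19, adjusted p = 0.217), coro1a, for a leukocyte actin regulator (0.76 ± 0.23, adjusted p = 0.244), and csf1ra, for a receptor needed by macrophages and by yellow pigment cells (0.86 ± 0.27, adjusted p = 0.266).

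**Figure D2:**
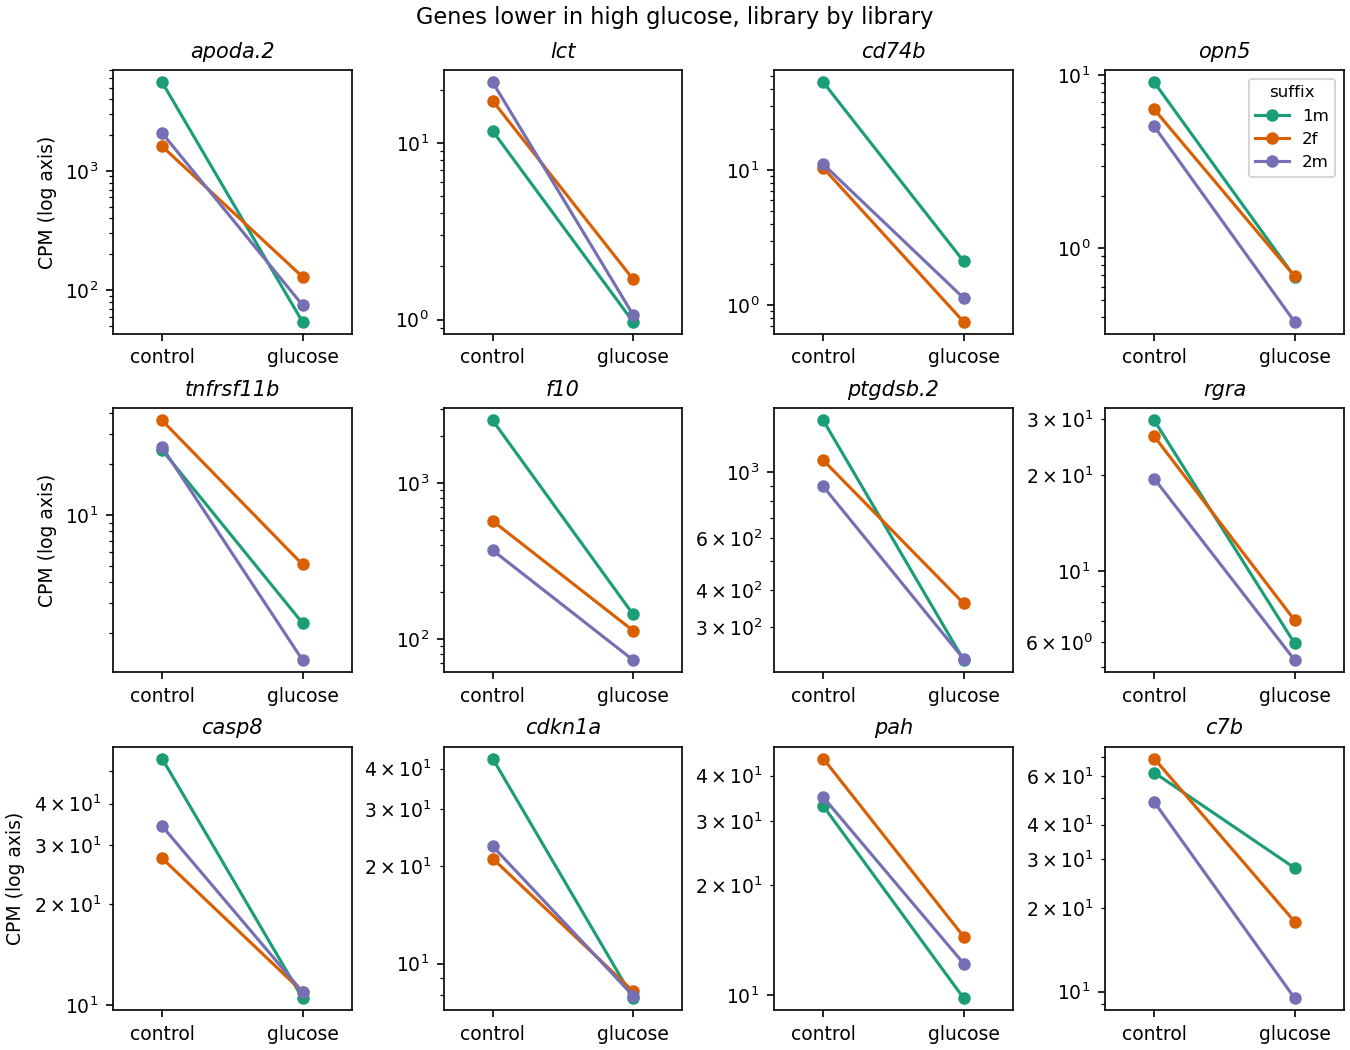
Level (CPM, log axis, each panel with its own range) of 12 genes past the test in the control and glucose library of each suffix, joined by lines. All 36 lines go down, and in each panel the 3 glucose points lie below the 3 control points, with the 1m control highest for apoda.2, cd74b, opn5, f10, ptgdsb.2, rgra, casp8 and cdkn1a.

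Opsins are light-sensing receptors that bind a form of vitamin A, and several act outside the rods and cones. The ultraviolet-sensitive opsin gene opn5 (chr20:36095194-36133867) had 9.10, 6.35 and 5.06 CPM in control and 0.685, 0.690 and 0.376 CPM in glucose. The log2 fold change of opn5 was -3.54 ± 0.38 (adjusted p = 0.00829, and 0.0990 without the block), with pairs at -3.51, -2.99 and -3.37. The gene rgra (chr13:29315776-29325409) encodes an opsin of the RGR type, which in mammals regenerates the chromophore in pigment epithelium and glia of the retina. It went from 29.8, 26.5 and 19.5 CPM to 5.94, 7.02 and 5.26 CPM, a log2 fold change of -2.05 ± 0.24 (adjusted p = 0.00829, and 0.0870 without the block). Its paralogue rgrb stood on the other side of 0, with 12.5, 19.8 and 15.8 CPM in control and 23.3, 24.8 and 32.2 CPM in glucose, all 3 glucose libraries above the controls (0.75 ± 0.20, adjusted p = 0.217).

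A further opsin, opn6a, had 13.3, 5.49 and 1.86 CPM in control and 0.571, 0.752 and 0.752 CPM in glucose and missed the threshold (-2.96 ± 0.54, adjusted p = 0.0771), while opn6b stood at -0.29 (adjusted p = 0.921). Of 18 tested members of the non-visual opsin list 2 fell, against 0.156% of all tested genes. In that list 9 stood below 0 and 9 above, near the share over all tested genes (50.4% above 0), and the median was -0.11. In the list of photoreceptor and retinoid cycle genes, which also holds rgra, that gene alone of 46 tested members passed. Over all tested genes 0.156% were called lower. The next lowest p in that list was that of guca1e, for an activator of guanylate cyclase (-2.78 ± 0.68, adjusted p = 0.192). It had 0.975, 1.53 and 0.524 CPM in control and 0.171, 0.188 and 0.0627 CPM in glucose. Its glucose values were thus at or below the floor of 3 counts. The list median was 0.08. The enzyme gene cyp27c1, whose product converts vitamin A1 to vitamin A2 in zebrafish, went from 217, 71.3 and 59.0 CPM to 31.3, 27.3 and 25.2 CPM and did not pass (-1.85 ± 0.31, adjusted p = 0.0571).

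Genes of the p53 response, by which damaged or stressed cells arrest or die, included 2 falls. These were 2 of 46 tested members, where 0.156% of all tested genes were called lower. The initiator caspase gene casp8 (chr6:12811027-12821868) had 54.5, 27.5 and 34.3 CPM in control and 10.5, 11 and 11 CPM in glucose, where the 3 libraries were nearly equal. On the log2 scale the change was -1.79 ± 0.23 (adjusted p = 0.0140, and 0.105 without the block). The cell cycle inhibitor gene cdkn1a (chr22:565659-570089) went from 43.0, 21.1 and 23.0 CPM to 7.82, 8.21 and 7.96 CPM, again with nearly equal glucose libraries, with a log2 fold change of -1.79 ± 0.24 (adjusted p = 0.0187, and 0.166 without the block). Over the list, 34 of 46 tested members were below 0, 12 had an unadjusted p below 0.05 on the lower side against 6.18% of all tested genes, and the median was -0.23. Summed over all 46 members the level was 5569, 3377 and 3818 CPM in control 1m, 2f and 2m and 2620.5, 2612 and 2714 CPM in glucose, so that the 3 glucose libraries lay closer together than the controls.

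The rest of the named falls were spread over genes of several kinds, beginning with receptors. The gene tnfrsf11b (chr19:142180-146056) encodes osteoprotegerin, the decoy receptor that blocks formation of osteoclasts in mammals. It had the lowest p of all genes, with 24.2, 36.2 and 25.2 CPM in control and 2.28, 5.08 and 1.38 CPM in glucose (-3.41 ± 0.29, adjusted p = 0.00387, and 0.0990 without the block). The related receptor gene tnfrsf11a stood at 0.38 (adjusted p = 0.594). The glycine receptor beta subunit gene glrba went from 18.7, 6.29 and 3.2 CPM to 1.77, 1.13 and 0.564 CPM (-2.84 ± 0.33, adjusted p = 0.00848, and 0.725 without the block), and its paralogue glrbb from 5.07, 9.95 and 8.32 to 6.56, 9.65 and 11.3 CPM (0.26 ± 0.23, adjusted p = 0.670). Of 62 tested neurotransmitter receptor genes glrba was the single one to pass, where 0.156% of all tested genes were called lower. Of these receptor genes 46 stood above 0 (74.2%, against 50.4% of all tested genes).

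The efflux pump gene abcg2b (chr1:7988950-8007858), whose mammalian counterpart exports urate and many foreign compounds, had 23.0, 12.3 and 6.81 CPM in control and 3.42, 2.38 and 0.251 CPM in glucose. The value of glucose 2m is close to the floor, and the log2 fold change was -2.99 ± 0.37 (adjusted p = 0.0130, and 0.761 without the block). Its copies differed: abcg2a went from 374, 100.1 and 70.27 to 39.0, 39.7 and 27.13 CPM and missed the threshold (-2.02 ± 0.35, adjusted p = 0.0610), while abcg2c stood at 0.27 and abcg2d at 1.01 (adjusted p = 0.559 and 0.467). In the list of ABC transporters 1 of 43 tested members fell (0.156% over all tested genes), 29 were below 0 (10189 of 20562 over all tested genes) and the median was -0.12. It also held abcb11a, of the bile salt export pump family, at -1.16 ± 0.23 (adjusted p = 0.0982).

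Among the remaining named falls, mrap encodes an accessory protein of the ACTH receptor and went from 41.4, 3.91 and 7.56 CPM to 3.31, 1.25 and 1.63 CPM (-2.60 ± 0.37, adjusted p = 0.0283). The gene rasef, for a Rab-type GTPase with EF-hand motifs, stood at 32.8, 15.3 and 14.3 CPM in control and 3.88, 4.58 and 3.63 CPM in glucose (-2.27 ± 0.29, adjusted p = 0.0130), and the leucine-rich repeat gene lrrc58a at 64.5, 45.7 and 33.9 CPM and 11.7, 10.5 and 11.2 CPM (-2.04 ± 0.26, adjusted p = 0.0140). Control 1m was the highest library for all 3 genes. Opticin, a small proteoglycan of the vitreous, is encoded by optc, which had 109, 47.5 and 29.5 CPM in control and 33.8, 14 and 13.2 CPM in glucose. Glucose 1m exceeded control 2m, so that this was the 1 lower gene whose groups overlapped, and its log2 fold change was -1.55 ± 0.19 (adjusted p = 0.00993). Named outside the rule for named genes, as the smallest of the 21 falls with an ordinary symbol, bmb (brambleberry, needed for nuclear fusion in the cleaving zebrafish embryo) went from 19.1, 20.6 and 21.8 CPM to 8.62, 6.14 and 9.15 CPM (-1.38 ± 0.22, adjusted p = 0.0478). Without the block the adjusted p of these genes was 0.761 for mrap, 0.145 for rasef, 0.282 for lrrc58a, 0.761 for optc and 0.282 for bmb.

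The other 11 falls had clone-style names, and 5 of the 32 lower genes were annotated as non-coding. The processed transcript si:dkey-204l11.1 had 46.5, 24.2 and 32.2 CPM in control and 10.4, 5.39 and 9.65 CPM in glucose (adjusted p = 0.0339). The protein-coding gene si:ch211-161h7.5 was the most abundant of the 11, at 507, 183 and 127 CPM in control and 24.0, 41.0 and 9.46 CPM in glucose (adjusted p = 0.00829). For si:ch211-239d6.2 all 3 glucose libraries held 0 counts, against 7.54, 1.83 and 1.05 CPM in control (adjusted p = 0.0252). These 3 were chosen after their values had been seen.

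Control 1m was the highest control in 23 of the 32 lower genes, control 2m in 6 and control 2f in 3, whereas over all tested genes control 1m was the highest control in 8428 and the lowest in 8488. Within the pairs, the median log2 fold change of the 32 genes was -2.69 for 1m, -2.03 for 2f and -2.21 for 2m, against 0.00, 0.03 and 0.00 over all tested genes. The 32 genes were called on these same pairs, so medians below 0 follow from the choice. Leaving out control 1m still gave 32 lower genes, 22 of them among the 32, and 8 higher genes. Leaving out glucose 1m left 1 lower gene, apoda.2 (adjusted p = 0.038), and 0 higher, with the adjusted p of the 32 reaching 0.48, and leaving out glucose 2m left 17 and 0. The numbers of lower and higher genes were 21 and 8 without control 2f, 74 and 48 without control 2m, 24 and 8 without glucose 2f, 50 and 12 without salt 1m, and 51 and 12 without salt 2m. When the 6 control and glucose libraries were left out in turn, apoda.2 passed all 6 times. Of the genes with an ordinary symbol, f10, tnfrsf11b, cd74b, lct, abcg2b and opn5 passed 5 times.

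**Figure D3:**
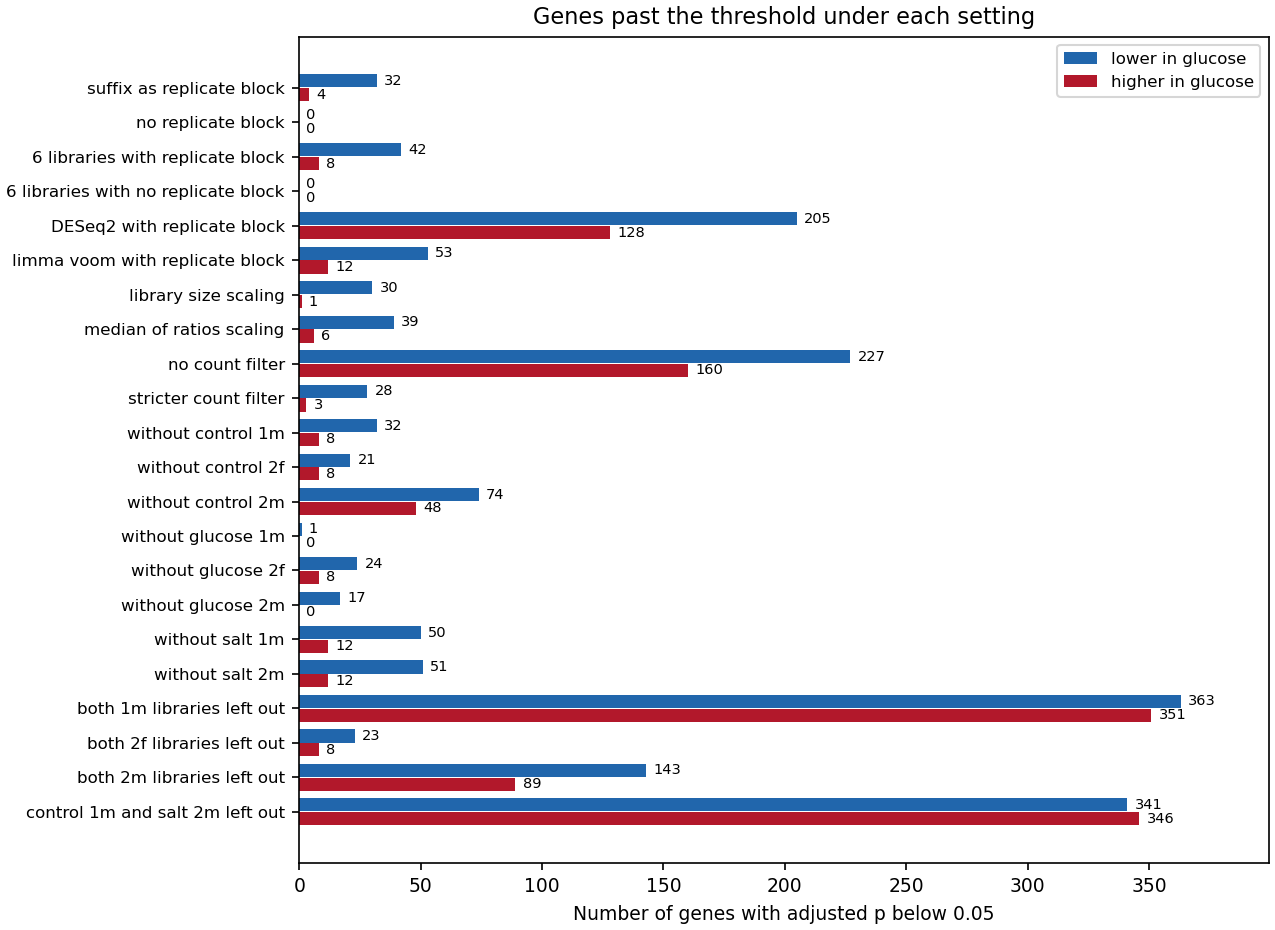
Number of genes with an adjusted p below 0.05 (bars from 0, lower and higher in glucose) under the reported setting and 21 alternatives. No gene passes without the replicate block, 1 lower gene passes without glucose 1m, and the counts of 341 to 363 belong to fits with 1 residual degree of freedom.

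All 4 rises were genes of the eye lens, whose fibre cells are filled with crystallins and joined by membrane proteins. The lens membrane protein gene lim2.3 (chr15:19717075-19723846) had 0.715, 4.76 and 8.26 CPM in control and 5.71, 12.5 and 31.1 CPM in glucose, with 1m, 2f and 2m in this order, and had a log2 fold change of 1.97 ± 0.29 (adjusted p = 0.0341, and 0.761 without the block). Its relative lim2.4 went from 5.66, 25.4 and 54.6 to 26.1, 73.5 and 103 CPM (1.5 ± 0.24, adjusted p = 0.0478, and 0.761 without the block). In both genes every glucose library exceeded the control of its own suffix, while the groups overlapped. The beta-crystallin gene cryba2a (chr6:13650768-13654197) rose from 7.80, 33.3 and 56.4 CPM to 32.2, 74.0 and 124 CPM (1.41 ± 0.21, adjusted p = 0.0357, and 0.761 without the block). The gamma-crystallin gene crygm2d20 (chr9:22400974-22461185) rose from 0.845, 5.06 and 20.8 CPM to 2.85, 25.2 and 54.4 CPM (1.78 ± 0.27, adjusted p = 0.0366, and 0.764 without the block). Its annotated span covers other copies of the cluster, crygm2d7 among them (chr9:22460187-22461312, 1.73 ± 0.33, adjusted p = 0.0877), so its own share of these reads is uncertain. All 21 tested crygm2d copies had values above 0, from 0.71 to 2.19.

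Over the whole lens list, 4 of 58 tested members rose and 0 fell, where 0.0195% of all tested genes were called higher and 0.156% lower. Of the list 54 stood above 0, against 10373 of 20562 for all tested genes. Of the 58, 41 had an unadjusted p below 0.05 on the higher side, against 6% of all tested genes. In 0 of the 58 did all 3 glucose libraries lie above all 3 controls, against 7.13% of all tested genes. Many of the 58 are crygm2d copies, some with overlapping annotated spans, so they are not separate counts. In the list of lens fibre membrane and cytoskeleton genes 7 of 15 tested members had such a p, and the median was 1.12. The list median was 1.46, and it was 1.82, 1.57 and 0.75 within the 1m, 2f and 2m pairs. Not every member followed: lim2.2 had 3.45, 1.83 and 2.27 CPM in control and 1.14, 0.501 and 0.376 CPM in glucose (-1.99 ± 0.52, adjusted p = 0.205). The filament gene bfsp2, for a lens fibre protein, went from 0.195, 1.16 and 3.78 CPM to 1.43, 4.14 and 21.2 CPM (2.23 ± 0.44, adjusted p = 0.0982), lim2.1 stood at 1.38 (adjusted p = 0.192) and cryba2b at 1.21 (adjusted p = 0.0728). Outside the lens list, and with the lowest p of the heat shock list, the heat shock cognate gene hsc70 went from 0.520, 5.49 and 7.79 CPM to 3.08, 15.3 and 20.9 CPM (1.70 ± 0.28, adjusted p = 0.0564).

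The lens genes also differed between suffixes within a treatment. Summed over the 15 lens markers found in the table (of 18 listed, none at 0 in all 6 libraries), the level was 28.5, 121 and 174 CPM in control 1m, 2f and 2m and 105, 223 and 394 CPM in glucose. These markers include the called lim2.3 and lim2.4, so their sums are no separate observation. Marker sums of other tissues differed in either direction in the 1m pair. Skeletal muscle markers summed to 3899, 8183 and 8839 CPM in control and 7643, 8608 and 12571 CPM in glucose, and neuronal markers to 314, 443 and 517 CPM in control and 441, 589 and 723 CPM in glucose. In the 1m pair liver markers went from 3895 CPM in control to 3672 CPM in glucose, intestine markers from 778 to 680.0 CPM and epidermis markers from 24513 to 23376 CPM. Control 1m was the lowest of the 6 libraries for markers of lens, muscle, neurons, pigment cells, macrophages and neutrophils, exocrine pancreas, photoreceptors, endothelium and heart. Their part in the lens result was not tested, and in bulk samples fewer cells of a type and less RNA per cell cannot be told apart. Without both 1m libraries the lens median was 1.24, and lim2.3 stood at 1.66 and crygm2d20 at 1.78 in that fit. Over all 21 alternatives the list median lay between 1.06 and 1.85.

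**Figure D4:**
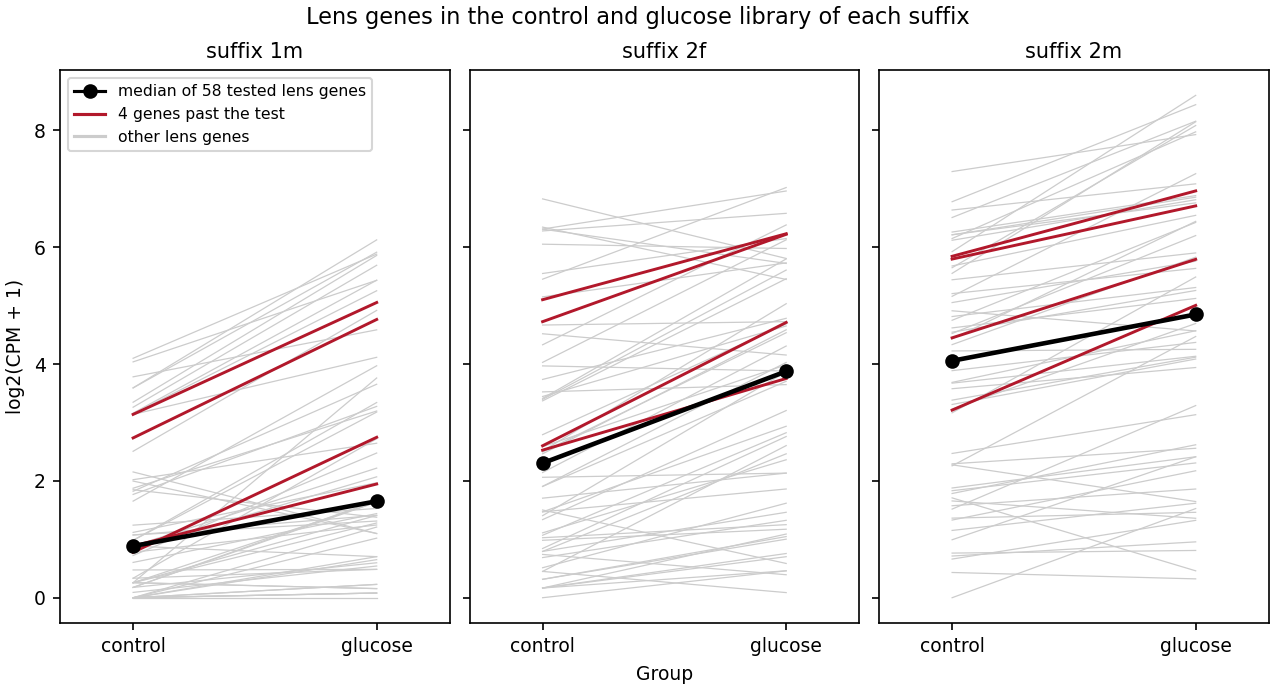
Level of each of the 58 tested lens genes, as log2(CPM + 1), in the control and glucose library of each suffix. The 4 genes past the test (red) and the median (black) are higher in glucose than in control in each suffix, and the level also differs widely between suffixes. Summed over the 77 lens genes found in the table it was 164, 898 and 1635 CPM in control 1m, 2f and 2m. The sums in glucose were 678, 1521 and 4069 CPM.

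Genes of glucose metabolism gave no call. Calls were rare, at 0.175% of all tested genes in either direction, so most sets of this size would hold none. None of the 22 tested genes of a set named whatever their values passed the test, with adjusted p from 0.192 for pck1 to 0.993 for cpt1b. The gluconeogenic gene pck1 had 24.6, 174 and 68.0 CPM in control and 22.3, 38.2 and 24.1 CPM in glucose, close to equal in the 1m pair and lower in glucose in the others (-1.28 ± 0.32, adjusted p = 0.192). The glucose-6-phosphatase copies stood at -1.66 ± 0.67 for g6pca.1 and -0.14 ± 0.46 for g6pca.2 (adjusted p = 0.366 and 0.921), the pairs of g6pca.2 disagreed in sign (1.67, -0.41 and -1.1), and fbp1b, for fructose bisphosphatase, stood at -0.24 ± 0.19 (adjusted p = 0.620). The hexokinase genes hk1, hk2 and gck had values of -0.13, -0.56 and -0.03, and gck was near the floor in control 1m and glucose 1m. For the glycogen phosphorylase gene pygl the value was 0.83, for sorbitol dehydrogenase sord 0.33 and for the hexosamine enzyme gfpt1 -0.33.

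The glucose-responsive factor gene mlxipl stood at -0.32, and its known targets in mammals, the txnip genes, at -0.10 ± 0.18 for txnipa and -0.06 ± 0.27 for txnipb. For txnipa the libraries held 292, 205 and 295 CPM in control and 274, 160.5 and 321 CPM in glucose, with overlapping groups. The arrestin-domain gene arrdc2 went from 26.1, 24.0 and 22.2 CPM to 31.4, 30.6 and 29.4 CPM, a small difference with glucose above control in each library (0.34 ± 0.17, adjusted p = 0.443). Glucose transporters slc2a1a and slc2a2 stood at -0.45 and 0.20, fasn for fatty acid synthase at -0.33, cpt1b for fatty acid oxidation at 0.01 and igfbp1a, a binding protein of insulin-like growth factors, at -0.16. The hormone genes ins and gcga, for insulin and glucagon, were low, at 0.650, 4.27 and 6.11 CPM of ins in control and 3.08, 4.33 and 8.40 CPM in glucose, and had values of 0.63 ± 0.61 and 0.12 ± 0.66. Of the same set slc5a1, insb and pdk2b did not pass the count filter, and pklr and akr1b1.1 were not matched by name.

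No member of the 4 lists of glucose handling passed the test. Glycolysis had a median of -0.03 over 38 tested members (0.00, -0.24 and 0.05 in the 1m, 2f and 2m pairs), and its lowest p values were those of pkmb, for a pyruvate kinase (1.54 ± 0.31, adjusted p = 0.104), pfkpa, for a phosphofructokinase (-1.05 ± 0.26, adjusted p = 0.188), and pfkfb3, for the enzyme that makes its activator (-0.76 ± 0.22, adjusted p = 0.233). For pkmb the libraries held 3.32, 25.8 and 37.5 CPM in control and 21.1, 45.8 and 101 CPM in glucose. Its level was lowest in control 1m and highest in glucose 2m. Marker sums of skeletal muscle, lens, neurons, pigment cells, macrophages and neutrophils, and exocrine pancreas had the same lowest and highest library. Their part in the pkmb value was not tested. Gluconeogenesis and glycogen genes had a median of 0.01 over 26 members (0.30, -0.11 and 0.05 by pair), with fbp2 at 1.27 and pygma at -0.76 (adjusted p = 0.252 and 0.289). The transport and insulin signalling list had -0.04 over 40 members (0.01, -0.08 and 0.05 by pair). In the list of side pathways, 20 of 25 tested members were below 0 (median -0.16, and -0.10, -0.04 and -0.12 by pair). It included the pentose phosphate gene tktb (-0.65 ± 0.24, adjusted p = 0.336), while tkta stood at 0.93 (adjusted p = 0.423). The medians of the first 3 lists over all pairs crossed 0 under some of the alternatives.

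**Figure D5:**
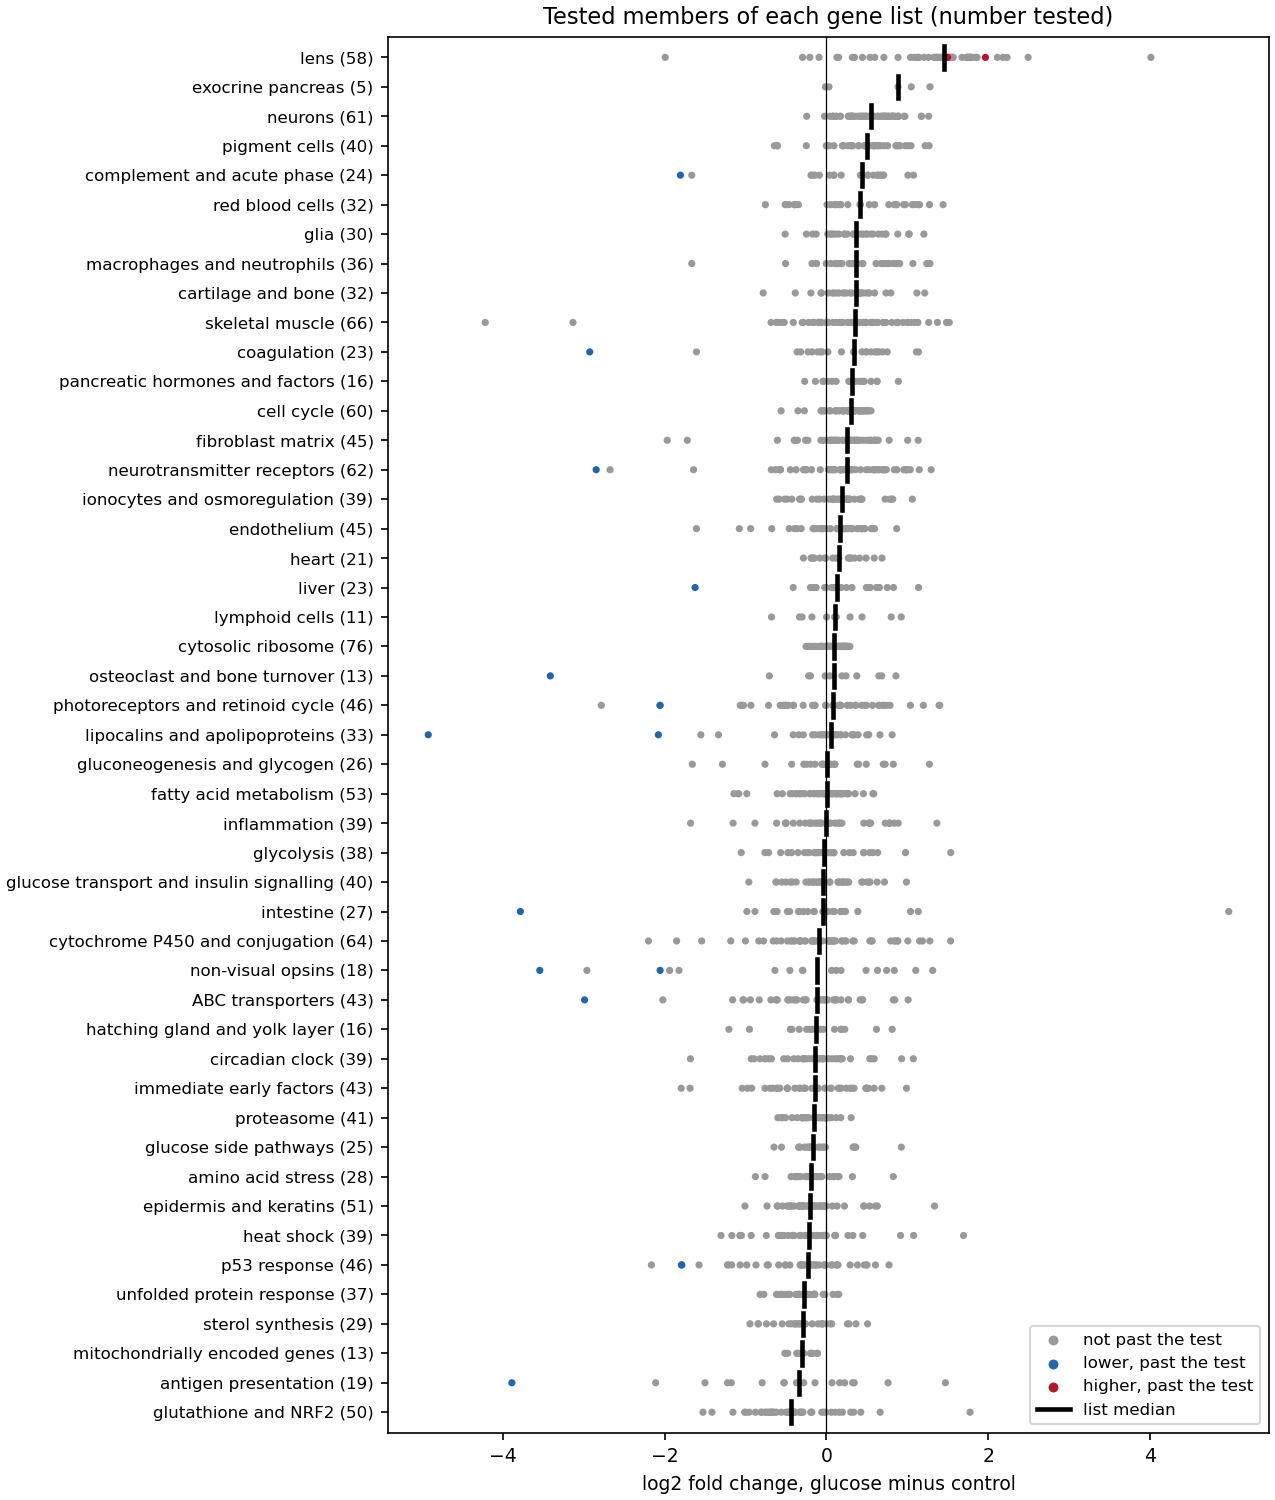
Log2 fold change, glucose minus control, of each tested member of 47 gene lists (points), with the list median (black bar) and the number tested in brackets. Lens genes have the highest median (1.46) and glutathione and NRF2 genes the lowest (-0.44). The medians of the 4 glucose handling lists lie between -0.16 (side pathways) and 0.01.

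Stress and antioxidant genes stood mostly below 0 without any call beyond casp8 and cdkn1a. Of 50 tested glutathione and NRF2 genes, which make and use glutathione and other reductants, 41 were below 0, 18 had an unadjusted p below 0.05 on the lower side against 6.18% of all tested genes, and the median was -0.44. The glutathione transferase-like gene mgst3b had 430.0, 299 and 306 CPM in control and 165, 192 and 156 CPM in glucose (-1.01 ± 0.21, adjusted p = 0.134). The peroxiredoxin gene prdx1 went from 631, 195 and 269 CPM to 118, 126 and 129 CPM (-1.41 ± 0.34, adjusted p = 0.183), and gclc, for the rate-limiting enzyme of glutathione synthesis, from 240.3, 116 and 92.5 CPM to 77.3, 72.8 and 61.2 CPM (-1.0 ± 0.25, adjusted p = 0.192). In all 3 genes the glucose libraries were close together and control 1m was the highest library. The list median was -0.89 in the 1m pair and -0.18 and -0.21 in the others. Unfolded protein response genes had 34 of 37 tested members below 0 and a median of -0.27, with the chaperone gene hyou1 at -0.58 ± 0.19, the sensor gene atf6 at -0.61 ± 0.24 and the co-chaperone gene dnajb11 at -0.45 ± 0.18 (adjusted p = 0.278, 0.349 and 0.356). The heat shock list had a median of -0.21, which turned to 0.03 under 1 alternative, and held hspb11 at -1.30 ± 0.28 (adjusted p = 0.136).

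Neuronal, glial and pigment cell genes stood mostly above 0, again with no call. Of 61 tested neuronal genes 59 were above 0 and 29 had an unadjusted p below 0.05 on the higher side, against 6% of all tested genes, with a median of 0.56. The proneural factor gene neurod1 had 12.6, 22.9 and 29.4 CPM in control and 27.5, 39.6 and 51.0 CPM in glucose (0.89 ± 0.19, adjusted p = 0.136). The GABA-synthesizing enzyme gene gad2 stood at 0.84 ± 0.19 and the synuclein gene sncb at 0.82 ± 0.20 (adjusted p = 0.172 and 0.188). Pigment cell genes had 35 of 40 tested members above 0 and a median of 0.50. They included the transcription factor gene tfap2e (1.22 ± 0.24, adjusted p = 0.104), the melanin enzyme gene dct (0.98 ± 0.26, adjusted p = 0.207) and slc2a11b, a transporter gene with a role in pigment cells of medaka (0.72 ± 0.19, adjusted p = 0.206). Glial genes had a median of 0.37 (26 of 30 above 0), with the glutamate transporter genes slc1a2b at 0.88 and slc1a3b at 1.21 and the myelin gene plp1a at 0.74 (adjusted p = 0.184, 0.234 and 0.244). The 1m pair had the largest median in all 3 lists, at 0.88 for neurons, 0.79 for pigment cells and 0.80 for glia, and the 2f and 2m medians lay between 0.16 and 0.46. The marker sums given above for neurons moved with these lists. They are sums over genes of the same kind and no separate observation, and their part was not tested.

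Muscle and cell cycle genes differed by pair. The skeletal muscle list had a median of 0.35 over 66 tested members, but 0.81, -0.24 and 0.42 within the 1m, 2f and 2m pairs. Its lowest p values were those of pvalb4, for a calcium buffer of fast fibres (1.52 ± 0.32, adjusted p = 0.127), mylpfb, for a fast myosin light chain (1.0 ± 0.21, adjusted p = 0.136), and mybpc1, for a slow-fibre myosin binding protein (-3.13 ± 0.71, adjusted p = 0.162). Cell cycle genes had 52 of 60 tested members above 0 and a median of 0.31, which was 0.80 in the 1m pair, 0.01 in 2f and 0.09 in 2m. Examples were the mitotic genes bub1 (0.46 ± 0.19) and kif11 (0.48 ± 0.20), while the replication origin gene orc6 stood at -0.56 ± 0.19 (adjusted p = 0.370, 0.371 and 0.302).

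Counted pair by pair, without a variance model, large differences were more often lower than higher in glucose. In log2 CPM with a prior count of 2, 116 genes (0.564% of those tested) were at least 2-fold lower in glucose in every suffix pair and 39 (0.19%) at least 2-fold higher. Of the 116, 100 had groups that did not overlap, against 7.67% of all tested genes, and 30 had passed the test. Of the 39, 13 had groups that did not overlap, against 7.13%, and 3 had passed. The direction of these genes is fixed by how they were chosen, and so in large part is the separation of their groups. Both sets hold genes near the floor, such as htr2b among the lower and trim35-13 among the higher. Their means over the 6 libraries were 0.233 and 0.451 CPM.

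High salt libraries share the control libraries with this comparison, so their values are given side by side only. For apoda.2 the salt libraries 1m and 2m had 699 and 175 CPM, for lct 2.04 and 0.906 CPM, for opn5 1.22 and 0.453 CPM, for pah 9.17 and 6.41 CPM, for f10 891 and 245 CPM and for cd74b 12.6 and 9.36 CPM. The values of apoda.2, lct, opn5 and pah lay below all 3 controls in both salt libraries. Those of f10 and cd74b did not. Of the 32 lower genes, 22 had both salt libraries below all 3 controls. The same share over all tested genes is not given here, so this count cannot be read as a shared response. The 32 were called against these same controls, so low salt values are not independent of the call. For txnipa the salt libraries had 63.8 and 55.2 CPM, below every control and glucose library.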

How the data were processed

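RNA of whole zebrafish embryos was measured in 3 control, 3 high glucose and 2 high salt libraries. The deposited table held raw read counts per gene as whole numbers. Genome build GRCz11 and the tools edgeR 3.22.5, DESeq2, featureCounts 1.5.0-p3, StringTie 1.3.3b and HISAT2 2.0.5 were listed, per the submitters' processing notes, without their order or settings. An array hybridization (Illumina) is described in the labels' extraction protocol, but the deposited values were whole-number counts and were treated as such. Whether strand was used in counting was not given, so overlapping and antisense genes cannot be told apart. Coordinates were copied from the deposited table with no check against the genome, and no gene sequences were used here. Columns were matched to groups, not to single samples, by their names. Symbols came from the table, and 2071 names were replaced through a reference table of gene symbols holding 26121 of the 31953 identifiers; 4932 genes had no count in any library.

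All 8 libraries entered 1 fit in edgeR 4.0.16 (R 4.3.3): TMM scaling, filterByExpr by group, a quasi-likelihood F-test with group and suffix as terms (3 residual degrees of freedom, median biological coefficient of variation 0.221, and 0.28 without the suffix), Benjamini-Hochberg adjustment over 20562 genes and a threshold of 0.05. Standard errors were derived as the fold change over the root of its F statistic. The block follows the rule by which the comparison was set. As a check, deviations from group means over tested genes correlated at r = 0.47 (1m), 0.14 (2f) and 0.44 (2m) between same-suffix control and glucose libraries. The 2f value is barely above that of control 2f with glucose 2m (0.13), and the labels do not say that the suffix marks a shared batch. No library was taken for a duplicate, since the 7 within-group pairs had a chi-square per degree of freedom of 16.7 to 88.4.

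Named genes were the 20 largest falls and up to 10 rises past the threshold with an ordinary symbol and a mean of at least 1 CPM, up to 3 members with the lowest p per list described and any member past the threshold, a fixed set of glucose genes whatever their values, and copies of the same family; other names are marked where they occur, and some values of single genes are not reported here. The comparison, the 48 gene lists and the tests were chosen with earlier results of these data known. Lists are described by counts and medians only. Alternatives were DESeq2 1.42.0, limma 3.58.1 (voom), other scalings and count filters, fits without the block or without salt, and fits leaving out libraries. The fit was also run on counts simulated from its own estimates, which cannot test whether the suffix block or the spread is right.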

Additional observations from a re-analysis of the deposited data

How the results depend on the processing

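The number of genes called depends on the processing. All 32 lower genes stayed below 0 and all 4 higher genes above 0 in each of 21 alternatives, with 1 lower gene not tested under the stricter count filter. These genes were called on the same libraries and had the same sign in every suffix pair. Their sign could therefore hardly turn, and its stability is no separate evidence. Fits without the replicate block called 0 lower and 0 higher genes, over all 8 libraries (1227 with an unadjusted p below 0.05) and over the 6 (1369). With the replicate block, the numbers of lower and higher genes were 42 and 8 with the 6 libraries alone, 205 and 128 by DESeq2, 53 and 12 by limma voom, 30 and 1 with library size scaling, and 227 and 160 with no count filter. The stricter filter gave 28 and 3 and median of ratios scaling 39 and 6. Fits leaving out 1 library gave between 1 and 74 lower and between 0 and 48 higher genes. Leaving out both 1m libraries gave 363 and 351, both 2m libraries 143 and 89, and control 1m with salt 2m 341 and 346, each with 1 residual degree of freedom, while leaving out both 2f libraries gave 23 and 8. The fits without both 2f or both 2m libraries and without control 1m and salt 2m were chosen after seeing the data. The cause of these changes was not tested.

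Of the gene values under the alternatives 33 turned sign, all in genes that were not called, and 129 lost and 229 gained a call. Over all alternatives in which each gene was tested, the log2 fold change lay between -0.80 and 0.65 for g6pca.2, -0.28 and 0.010 for hk1, -0.39 and 0.20 for gck, -0.24 and 0.021 for txnipa, -0.41 and 0.21 for txnipb, -0.66 and 0.68 for gcga, -0.66 and 0.16 for fasn, -0.017 and 0.043 for cpt1b and -1.50 and 0.71 for opn6b. Without both 2f libraries the values were 0.018 for g6pca.2, 0.00883 for hk1, 0.20 for gck, 0.020 for txnipa and -0.010 for cpt1b, and without both 2m libraries 0.60 for g6pca.2, -0.28 for gcga, -0.011 for cpt1b and 0.50 for opn6b. For txnipb the value was 0.14 both without the 1m libraries and without control 1m and salt 2m.

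List medians moved by more than the SD of the list's 3 within-pair medians in 83 values and by less in 925. This limit is wide where the pairs of a list disagree. The heat shock median thus turned sign without passing it, so the 925 do not measure stability. Depth limits what can be said of low genes, since the 3 counts that a count of 0 allows are 0.171 to 0.226 CPM in these libraries.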

Other observations

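All 13 mitochondrially encoded genes stood below 0 in glucose, none past edgeR's quasi-likelihood test, with a median log2 fold change of -0.30 and medians of -0.17, -0.07 and -0.52 in the 1m, 2f and 2m pairs. The respiratory chain genes mt-co2 and mt-nd3 were at -0.51 ± 0.26 and -0.48 ± 0.25 (estimate ± SE, edgeR adjusted p = 0.453 and 0.462). Of 76 cytosolic ribosome genes 57 stood above 0, with a median of 0.09 (-0.13, 0.28 and 0.16 by pair), and of 41 proteasome genes 34 stood below 0, with a median of -0.15 (-0.27, -0.06 and -0.05 by pair). Sterol synthesis had a median of -0.29 over 29 tested genes, and the circadian clock list one of -0.14 over 39. No member of these lists passed the test.

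Vascular, cartilage and blood genes gave no call either. In the endothelial list, with a median of 0.17 over 45 tested genes, vegfab, for a blood vessel growth factor, had 28.7, 23.0 and 22 CPM in control and 11.07, 18.6 and 10.09 CPM in glucose (-0.94 ± 0.23, edgeR adjusted p = 0.192). Cartilage and bone genes had 27 of 32 tested members above 0, with a median of 0.36 and the cartilage collagen gene col9a1a at 1.22 ± 0.36 (edgeR adjusted p = 0.244). Red blood cell genes differed between pairs, with medians of 0.89 in 1m, 1.5 in 2f and -0.43 in 2m, and their 5 defining markers summed to 264, 74.1 and 1008 CPM in control 1m, 2f and 2m and 786, 464 and 919 CPM in glucose. In the list of cytochrome P450 and conjugation genes, cyp1b1, a target of the aryl hydrocarbon receptor, went from 3.19, 10.13 and 7.5 CPM to 8.62, 23.9 and 17.5 CPM (1.28 ± 0.26, edgeR adjusted p = 0.104).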
